A study of Mus musculus with 12 samples.

Results

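The 35 genes described here encode the enzymes and carriers of the tricarboxylic acid (TCA) cycle, of pyruvate entry into it and of glutamine use. They were taken as a list of gene symbols and not by their values. All 35 matched 1 gene each among the 54232 in the count files, and all 35 were among the 16767 genes abundant enough to be tested. The study used breast cancer cells of MMTV-NIC mice, in which the MMTV promoter drives an activated Neu (ErbB2) oncogene together with Cre recombinase from a single transcript, so that every group carries both. A total of 4 groups of 3 RNA-seq libraries each were compared: AXL WT and AXL KO cells, each in 21% oxygen (normoxia) and in 1% oxygen (hypoxia). AXL is a receptor tyrosine kinase, and the series asked how its loss changes gene expression in hypoxia. The labels give neither the time in hypoxia nor the number of knockout clones, and they do not say whether replicates were separate cultures. The p-values therefore describe the spread between these libraries, which may be technical.

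In the TCA cycle, citrate synthase joins acetyl-CoA to oxaloacetate, and the carbon is then oxidised by way of citrate, 2-oxoglutarate, succinate, fumarate and malate back to oxaloacetate. Pyruvate reaches the mitochondrion through a carrier and becomes acetyl-CoA in the pyruvate dehydrogenase complex, or oxaloacetate through pyruvate carboxylase, while glutamine supplies glutamate and then 2-oxoglutarate. Tumour cells in low oxygen are known to send less pyruvate into the cycle and to draw more on glutamine, and citrate exported from the mitochondrion feeds fatty acid synthesis. Many of these steps exist as a cytosolic and a mitochondrial enzyme encoded by separate genes.

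Libraries held 45297267 to 58775422 counts in genes, of which the 35 genes took 0.348% to 0.601%. Values are given as CPM, counts relative to library size, scaled by TMM, a factor per library that corrects for composition. Axl itself matched the titles, at 934 ± 57.7 CPM in AXL WT normoxia, 519 ± 69.1 in AXL WT hypoxia, and in AXL KO at 3.22 ± 0.271 in normoxia and 2.05 ± 0.319 in hypoxia (SD, n = 3). The AXL WT hypoxia libraries differed from each other far more than the rest did. Their biological coefficient of variation was 0.402 against 0.0565 to 0.0895 in the other groups. The median coefficient of variation of the 35 genes there was 19.5%, against 4.91% to 5.68% elsewhere, and 7 of the 35 differed more than 2-fold between the highest and the lowest of these libraries. Summed CPM of 5 mammary epithelial and transgene markers (Krt8, Krt18, Epcam, Cdh1, Erbb2) was 4487, 953 and 1222 in AXL WT hypoxia replicates 1, 2 and 3. It was 3112 to 3202 in AXL WT normoxia, 2159 to 2446 in AXL KO normoxia and 2278 to 2376 in AXL KO hypoxia. The sum hides markers that moved apart. Erbb2 reached 2407 CPM in the first of these hypoxic replicates and stood at 131 and 359.5 CPM in the others, against 1116 to 1342 CPM in AXL WT normoxia. Epcam was instead higher in every AXL WT hypoxia library (42.6 to 104 CPM) than in AXL WT normoxia (20.6 to 24.9 CPM), as was Cdh1 (20.5 to 47.4 against 9.73 to 12.7 CPM). Both were lower in AXL KO, at 6.11 to 12.5 and 3.38 to 6.21 CPM. The keratins did not follow them. Krt18 was at 989 to 1090 CPM in AXL WT normoxia, 937 to 1032 in AXL KO normoxia and 980 to 1043 in AXL KO hypoxia. In AXL WT hypoxia it ran from 372 to 1159 CPM with a median of 382. Krt8 ran there from 323 to 828 CPM with a median of 418, against 777 to 875 in AXL WT normoxia. It was at 683 to 820 CPM in AXL KO normoxia and 623 to 659 in AXL KO hypoxia. Of 7 leukocyte markers only Cd68 reached 1 CPM in any library, and the summed list stood at 6.46 to 12.6 CPM in AXL WT and 49.0 to 85.2 CPM in AXL KO, where Adgre1 was at 0. Of 6 fibroblast markers 4 reached 1 CPM in every group but AXL WT normoxia, where 2 did, and the summed list ran from 58.7 to 201 CPM, with Thy1 at 0 in AXL WT and Lum at 0 in AXL KO normoxia. Of 5 endothelial markers only Kdr reached 1 CPM, in AXL KO, with summed levels of at most 2.41 CPM in AXL WT and 3.28 to 17.8 CPM in AXL KO, and no adipocyte marker reached it. The part of these differences in the results below was not tested. In such bulk samples a lower level in each cell and fewer cells expressing a gene cannot be told apart. Called differences of single genes among the 35 that rest on AXL WT hypoxia are given below also without its replicates 2 and 3, where the single library left is assumed to vary like the other groups. The spread given above does not meet that assumption, because this group varied far more than the others. Adjusted p-values and calls from that fit leave this spread out and can be too small, so a call kept there is weak support.

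Most of the 35 genes differed between groups, about as often as genes in general. Calls are genes with a p under 0.05 after Benjamini-Hochberg adjustment in edgeR's quasi-likelihood test, fitted to all genes and all 12 libraries. In hypoxia, 24 of 35 were called between AXL KO and AXL WT, 10 higher and 14 lower in AXL KO (68.6%). Of all genes tested 63.0% were called there, 29.9% higher and 33.0% lower, so the share of the 35 lay near the background. In normoxia 22 of 35 passed, with 13 higher in AXL KO and 9 lower, beside 59.7% of all genes, 29.7% higher and 30.0% lower. Hypoxia changed 20 of 35 in AXL WT, 6 upwards and 14 downwards, against 59.8% of all genes, 29.2% up and 30.7% down. In AXL KO it changed 19, of which 3 rose and 16 fell, against 58.0% of all genes, 27.3% up and 30.6% down. The responses of the genotypes to hypoxia differed for 12 of 35 genes (34.3%), 4 with the more positive response in AXL KO and 8 with the more negative, against 28.8% of all genes, 13.5% and 15.3% in these directions. This count depended on AXL WT hypoxia replicate 1, without which it was 20, with 11 more positive and 9 more negative. Calls over all genes rose as well, from 4830 of 16767 to 8417 of 17493, so the larger count is not particular to the 35 genes. The median log2 fold changes of the 35 genes were −0.12, 0.22, −0.17, −0.26 and −0.06 in these 5 comparisons, beside medians of −0.04, −0.03, −0.02, −0.03 and −0.02 over all genes.

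**Figure D1:**
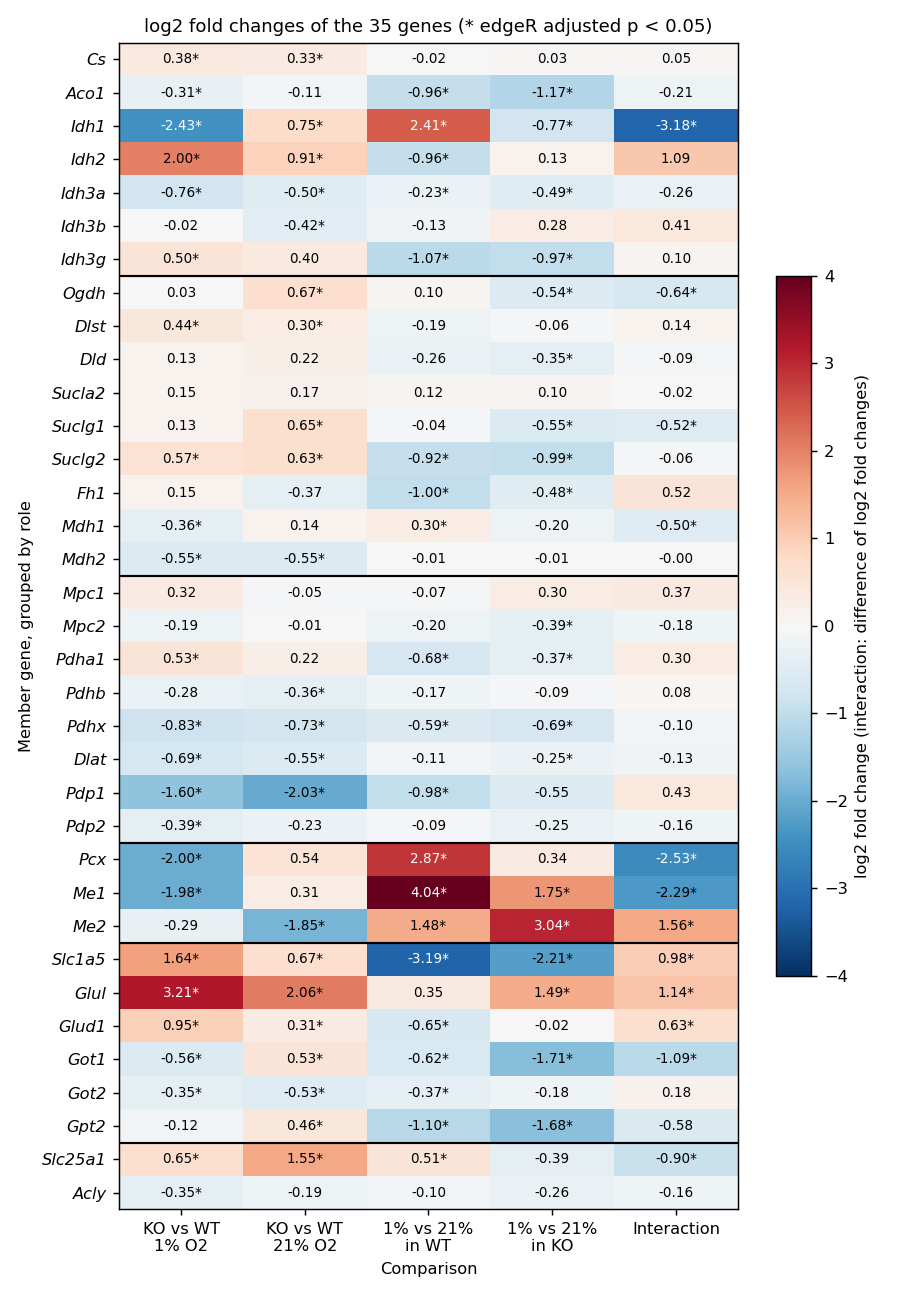
Heat map of the log2 fold changes of the 35 genes (rows, grouped by role) in the 5 comparisons (columns). Red is higher in the first-named condition, blue lower, the number in each cell is the log2 fold change and an asterisk marks an adjusted p under 0.05. The strongest colours are in Idh1, Pcx, Me1, Me2, Slc1a5 and Glul, while Sucla2 and Mpc1 have no asterisk in any column.

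The split between higher and lower calls depended on the scaling. With library size alone in place of TMM, the all-gene median of the log2 fold change became −0.21, −0.29, −0.32, −0.23 and 0.07 in the 5 comparisons. The 35 genes then divided into 7 higher and 16 lower between genotypes in hypoxia, 4 and 13 between them in normoxia, 4 and 25 for hypoxia in AXL WT, 3 and 23 for hypoxia in AXL KO, and 4 and 7 for the difference of responses. Among all genes called, the share called higher went from 49.7% to 35.8% in normoxia, from 48.8% to 33.2% for hypoxia in AXL WT and from 47.1% to 36.0% for hypoxia in AXL KO. Small fold changes below are therefore relative to the TMM scale.

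Among the malic enzymes and pyruvate carboxylase, Me1 had the largest log2 fold change of the 35 genes in any comparison. All 3 of these genes rose in hypoxia in AXL WT, and 2 of 3 rose in AXL KO, beside 29.2% and 27.3% of all genes. Me1, the cytosolic malic enzyme that makes NADPH while turning malate into pyruvate, stood at 56.9, 62.9 and 66.1 CPM in AXL WT normoxia and at 749, 1097 and 1216 CPM in AXL WT hypoxia. The AXL KO values were 67.8, 79.4 and 83.3 CPM in normoxia and 264.5, 251 and 262 CPM in hypoxia. Every hypoxic library lay above every normoxic one, and AXL WT hypoxia lay above AXL KO hypoxia without overlap. Me1 rose by a log2 fold change of 4.04 ± 0.17 (SE) in AXL WT (adjusted p = 2.59e-08) and of 1.75 ± 0.16 in AXL KO (adjusted p = 3.73e-06). The difference between these responses was −2.29 ± 0.22 (adjusted p = 3.3e-05). Without AXL WT hypoxia replicates 2 and 3 it was −1.85, and the rise in AXL WT 3.61. Between genotypes Me1 differed in hypoxia by −1.98 ± 0.16 (adjusted p = 8.3e-07), or by −1.54 without those replicates, and did not pass in normoxia (0.31 ± 0.15, adjusted p = 0.101). The normoxic libraries did not overlap, and 4 of 22 alternatives called the difference: the 6 compared libraries alone, quality weights per group, and AXL WT hypoxia without replicate 1 or without replicates 2 and 3 (adjusted p = 0.00121 for the last).

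Me2, the NAD-dependent malic enzyme of the mitochondrion, showed the opposite ranking of responses. It stood at 46.65, 46.3 and 56.4 CPM in AXL WT normoxia, and at 77.3, 139.5 and 199 CPM in hypoxia. Knockout libraries held 11.7, 16.2 and 13.5 CPM in normoxia and 109.7, 119.8 and 111 CPM in hypoxia. The AXL KO normoxia libraries were the lowest of the 12, and the hypoxic libraries of the genotypes overlapped. Me2 rose by 1.48 ± 0.26 in AXL WT (adjusted p = 0.000485) and by 3.04 ± 0.28 in AXL KO (adjusted p = 4.44e-06), a difference of 1.56 ± 0.37 (adjusted p = 0.00853). In normoxia AXL KO was the lower genotype, with a log2 difference of −1.85 ± 0.27 (adjusted p = 8.67e-05), and in hypoxia the difference of −0.29 ± 0.26 did not pass (adjusted p = 0.345). That last value depended on the AXL WT hypoxia libraries. It became −0.57 when replicate 1 was left out (adjusted p = 0.00504) and 0.55 without replicates 2 and 3. Without replicates 2 and 3 the rise in AXL WT was 0.65 and the difference of responses 2.39.

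Pcx encodes pyruvate carboxylase, which replenishes oxaloacetate. It stood at 62.3, 62.6 and 70.9 CPM in AXL WT normoxia and at 163, 663 and 610.1 CPM in AXL WT hypoxia. In AXL KO the libraries lay at 88.6, 90.6 and 105 CPM in normoxia and at 111, 127 and 122 CPM in hypoxia. AXL WT hypoxia was the highest group, with replicate 1 well below the other replicates. Pcx rose by 2.87 ± 0.39 in AXL WT (adjusted p = 6.29e-05), while 0.34 ± 0.36 in AXL KO did not pass (adjusted p = 0.441). The AXL KO libraries of the oxygen levels did not overlap, and the same 4 alternatives as for Me1 called the value in AXL KO (adjusted p = 0.000597 without AXL WT hypoxia replicates 2 and 3). The responses differed by −2.53 ± 0.52 (adjusted p = 0.00407), and in hypoxia AXL KO was lower by a log2 fold change of −2.00 ± 0.37 (adjusted p = 0.000633). Without AXL WT hypoxia replicates 2 and 3 these values were smaller: 1.33 for the rise, −0.99 for the difference of responses and −0.45 between genotypes in hypoxia.

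**Figure D2:**
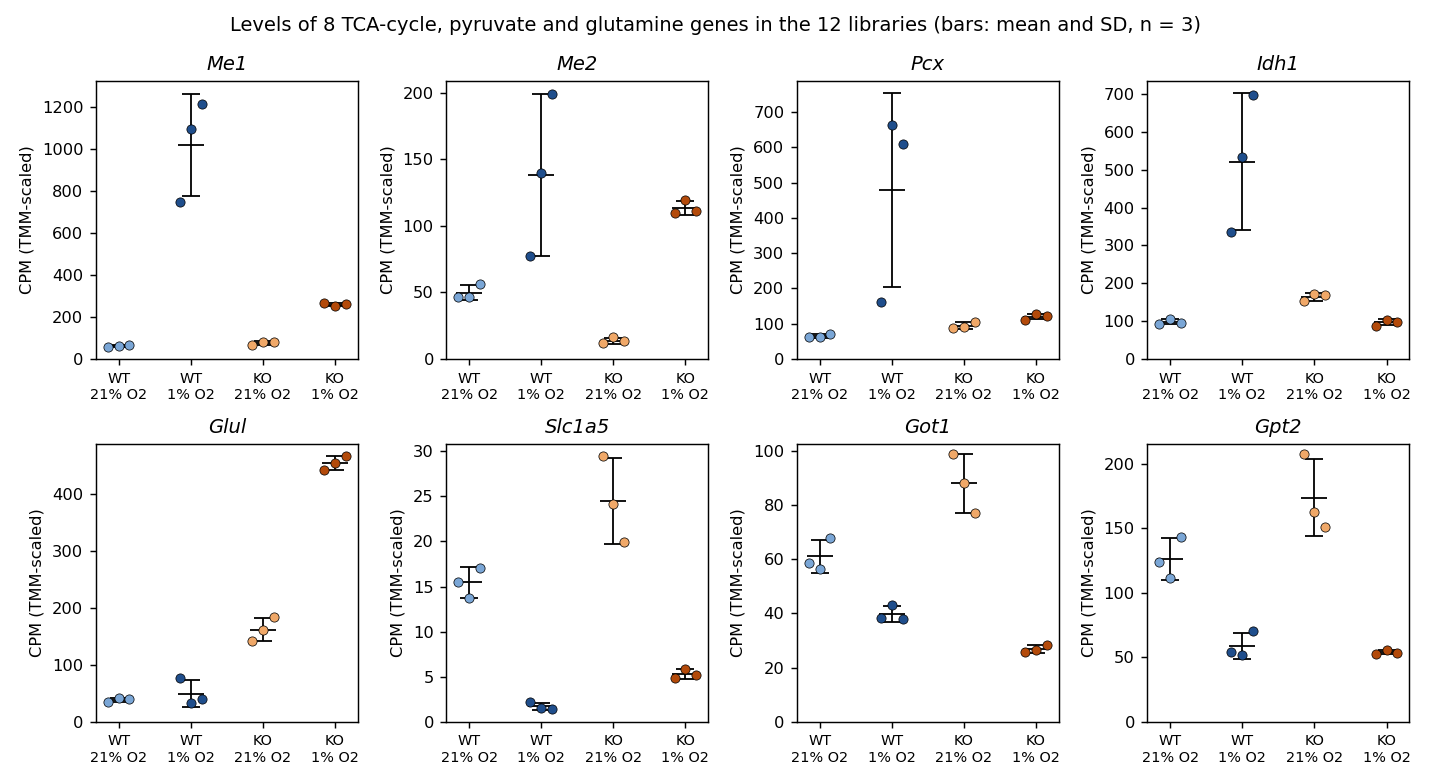
TMM-scaled CPM (vertical axes, linear from 0) of 8 of the genes in the 12 libraries, 1 dot per library in the 4 groups, with the mean and SD of 3 as bars. Me1, Pcx and Idh1 were highest in AXL WT hypoxia, Glul in AXL KO hypoxia, and Slc1a5, Got1 and Gpt2 in AXL KO normoxia; the bars of AXL WT hypoxia are the widest for Me1, Me2, Pcx and Idh1.

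The sequences upstream of the start sites of Pcx, Me1, Idh1 and Glul are shown because Pcx, Me1 and Idh1 rose most in AXL WT hypoxia, while Glul was the member highest in AXL KO hypoxia per length. They come from RefSeq (GRCm38.p6), which held a promoter entry for 31 of the 35 genes, and are written 5′ to 3′ in the direction of the gene. Capitals mark ACGTG (the core of the element that hypoxia-inducible factors bind), GGGCGG (the GC box) and CCAAT (the CCAAT box), on either strand. For Pcx and Glul the 250 bases before the RefSeq start are shown. For Idh1 and Me1 the last 21 and 39 of these 250 lie inside the gene as counted and are left out.
Pcx, chr19:4510222-4510471, plus strand: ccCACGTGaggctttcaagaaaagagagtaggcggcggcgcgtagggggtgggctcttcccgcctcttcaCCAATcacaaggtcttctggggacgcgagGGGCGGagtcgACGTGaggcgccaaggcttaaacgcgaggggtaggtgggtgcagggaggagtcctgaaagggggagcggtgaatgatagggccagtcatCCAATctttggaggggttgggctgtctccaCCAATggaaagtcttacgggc
Me1, chr9:86695954-86696164, minus strand: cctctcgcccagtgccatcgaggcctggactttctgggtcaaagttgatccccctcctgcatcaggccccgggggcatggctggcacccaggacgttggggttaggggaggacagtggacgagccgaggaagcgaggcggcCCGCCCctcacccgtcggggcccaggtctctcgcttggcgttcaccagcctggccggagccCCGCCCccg
Idh1, chr1:65186501-65186729, minus strand: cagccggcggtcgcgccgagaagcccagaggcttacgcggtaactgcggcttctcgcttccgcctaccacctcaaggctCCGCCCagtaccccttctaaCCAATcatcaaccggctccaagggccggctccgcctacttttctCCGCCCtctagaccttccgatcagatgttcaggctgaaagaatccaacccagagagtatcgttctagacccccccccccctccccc
Glul, chr1:153899679-153899928, plus strand: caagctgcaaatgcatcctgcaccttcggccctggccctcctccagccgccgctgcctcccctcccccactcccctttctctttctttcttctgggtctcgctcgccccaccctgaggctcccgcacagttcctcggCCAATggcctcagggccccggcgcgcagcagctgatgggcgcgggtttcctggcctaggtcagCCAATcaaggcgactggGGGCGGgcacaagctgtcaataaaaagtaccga
Pcx held 3 matches to ACGTG, of which 2 overlap on opposite strands near the far end (from bases −248 and −247) and 1 begins at base −140, counted from the start site. No match was in the full windows of Me1, Idh1 or Glul. Of the 31 windows of 250 bases, 4 (Mdh1, Mpc1, Mpc2 and Sucla2) lie wholly and 11 partly inside the gene as counted. The shares below include these windows. Over the 31 windows, 8 held ACGTG (25.8%), against 16.6% of 32851 RefSeq promoters. GGGCGG was in 24 of 31 (77.4%) against 32.7%, CCAAT in 17 (54.8%) against 33.8%, and TATAAA, the TATA box, in 1 (3.23%) against 12.4%. A match is only a stretch of these letters, and its absence only says that they are not in this window.

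Idh1 and Idh2 encode the NADP-dependent isocitrate dehydrogenases of the cytosol and of the mitochondrion, and in hypoxia they differed between the genotypes in opposite directions. Idh1 stood at 93.2, 106 and 95.5 CPM in AXL WT normoxia and at 334.5, 533 and 698 CPM in AXL WT hypoxia. The AXL KO libraries held 153, 173 and 168.5 CPM in normoxia and 88.2, 104 and 98.1 CPM in hypoxia. AXL WT hypoxia thus lay above all other libraries, whereas AXL KO hypoxia overlapped AXL WT normoxia. Idh1 was the only one of the 35 genes called in opposite directions by hypoxia: it rose by 2.41 ± 0.21 in AXL WT (adjusted p = 2.37e-06) and changed by −0.77 ± 0.20 in AXL KO (adjusted p = 0.00616). The difference was −3.18 ± 0.29 (adjusted p = 2.28e-05), and −2.54 without AXL WT hypoxia replicates 2 and 3, where the rise in AXL WT was 1.78. Idh1 was higher in AXL KO in normoxia (0.75 ± 0.20, adjusted p = 0.00671) and lower in AXL KO in hypoxia (−2.43 ± 0.21, adjusted p = 1.56e-06, or −1.79 without those replicates). Its normoxic call was lost with library size alone (0.49, adjusted p = 0.0688).

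Idh2 stood at 110.3, 128 and 109 CPM in AXL WT normoxia and at 99.9, 30.3 and 48.1 CPM in hypoxia. In AXL KO the libraries lay at 202, 222 and 229 CPM in normoxia and at 232, 245 and 236 CPM in hypoxia. All 6 AXL KO libraries were above all 6 AXL WT libraries, and AXL WT hypoxia replicate 1 lay close to normoxia. Idh2 was higher in AXL KO by 2.00 ± 0.32 in hypoxia (adjusted p = 0.000192) and by 0.91 ± 0.31 in normoxia (adjusted p = 0.0228), the latter called under 16 of 22 alternatives. The hypoxic difference was 1.25 without AXL WT hypoxia replicates 2 and 3. Its change with hypoxia in AXL WT (−0.96 ± 0.31, adjusted p = 0.0182) was −1.56 without replicate 1, −0.63 without replicate 2, −0.83 without replicate 3 (adjusted p = 0.0682) and −0.20 without replicates 2 and 3 (adjusted p = 0.0943), so that call rests on these libraries. In AXL KO it was 0.13 ± 0.31 (adjusted p = 0.747).

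Aco1, the cytosolic aconitase that also serves as an iron-regulatory protein, fell in hypoxia in both genotypes, from 80.7 ± 3.87 to 41.4 ± 1.75 CPM in AXL WT and from 75.1 ± 2.82 to 33.4 ± 2.48 CPM in AXL KO (log2 fold changes −0.96 ± 0.09, adjusted p = 4.08e-06, and −1.17 ± 0.09, adjusted p = 1.41e-06). In hypoxia it was also lower in AXL KO (−0.31 ± 0.09, adjusted p = 0.00998), a call kept under 18 of 22 alternatives. With replicates 2 and 3 of AXL WT hypoxia left out, the fall in AXL WT was −1.02 (adjusted p = 1.27e-07) and the difference in hypoxia −0.25 (adjusted p = 0.0391). The NAD-dependent isocitrate dehydrogenase of the cycle has a catalytic subunit, Idh3a, and regulatory subunits, Idh3b and Idh3g. Idh3g stood at 85.75, 92.7 and 86.3 CPM in AXL WT normoxia, 58.35, 27.35 and 40.1 CPM in AXL WT hypoxia. The AXL KO libraries held 117, 121 and 111 CPM in normoxia and 55.35, 62.15 and 60.8 CPM in hypoxia. In each genotype its hypoxic libraries lay below its normoxic ones (−1.07 ± 0.20, adjusted p = 0.000741, and −0.97 ± 0.20, adjusted p = 0.00153), the former −0.58 without AXL WT hypoxia replicates 2 and 3 (adjusted p = 3.42e-05). Its higher level in AXL KO in hypoxia (0.50 ± 0.20, adjusted p = 0.0454) was called under 5 of 22 alternatives and was 0.02 without those replicates (adjusted p = 0.863), and the libraries of the genotypes overlapped. Idh3a was lower in AXL KO under both oxygen levels (hypoxia −0.76 ± 0.09, adjusted p = 1.83e-05, and normoxia −0.50 ± 0.09, adjusted p = 0.000435), the hypoxic value being −0.90 without those replicates (adjusted p = 4.69e-08). Its fall in hypoxia in AXL WT (−0.23 ± 0.09, adjusted p = 0.043) was called under 4 of 22 alternatives and was −0.08 without them (adjusted p = 0.466). That in AXL KO was −0.49 ± 0.09 (adjusted p = 0.000598), while Idh3b passed only between genotypes in normoxia (−0.42 ± 0.12, adjusted p = 0.01). Within AXL KO the hypoxic libraries of Idh3b nevertheless lay above the normoxic ones, at 123 to 126 against 100 to 105 CPM. Cs, citrate synthase, did not pass in either hypoxia comparison, with means of 232 and 229 CPM in AXL WT and 292 and 299 CPM in AXL KO. It was higher in AXL KO in hypoxia (0.38 ± 0.09, adjusted p = 0.00379) and in normoxia (0.33 ± 0.09, adjusted p = 0.00887), although the hypoxic call was lost without AXL WT hypoxia replicates 2 and 3 (0.18, adjusted p = 0.0641) and the normoxic call with library size alone.

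From 2-oxoglutarate to oxaloacetate, 5 of 9 genes fell in hypoxia in AXL KO and none rose, beside 30.6% and 27.3% of all genes. In AXL WT 2 fell and 1 rose, beside 30.7% and 29.2% of all genes, and the difference between these counts was not tested. The pair that fell in both genotypes was Suclg2, the GTP-forming subunit of succinyl-CoA ligase, and Fh1, fumarase. Suclg2 went from 24.0 ± 0.826 to 12.6 ± 2.91 CPM in AXL WT (−0.92 ± 0.16, adjusted p = 0.000376) and from 37.3 ± 1.52 to 18.8 ± 2.34 CPM in AXL KO (−0.99 ± 0.16, adjusted p = 0.000244). The former was −0.61 without AXL WT hypoxia replicates 2 and 3 (adjusted p = 0.000462). Suclg2 was also higher in AXL KO in hypoxia (0.57 ± 0.16, adjusted p = 0.00777) and normoxia (0.63 ± 0.16, adjusted p = 0.00401). Both calls were lost with library size alone, and the first also without replicates 2 and 3 (0.26, adjusted p = 0.0888). Fh1 fell by 1.00 ± 0.16 on the log2 scale in AXL WT (adjusted p = 0.000238) and by 0.48 ± 0.16 in AXL KO (adjusted p = 0.0221). The former was −0.95 without AXL WT hypoxia replicates 2 and 3 (adjusted p = 9.99e-07), and the latter was not called without AXL KO normoxia replicate 2 or AXL KO hypoxia replicate 1 or 3 (adjusted p up to 0.0942). Ogdh and Suclg1, which encode the first component of the 2-oxoglutarate dehydrogenase complex and the shared subunit of succinyl-CoA ligase, were called in AXL KO and not in AXL WT. Ogdh went from 244 ± 8.18 to 167 ± 10.4 CPM there, against 153 ± 4.93 and 164 ± 32.2 CPM in AXL WT, and the responses differed by −0.64 ± 0.18 (adjusted p = 0.019). That difference was −0.28 without AXL WT hypoxia replicates 2 and 3 (adjusted p = 0.0457). Suclg1 went from 99.8 ± 6.43 to 68.0 ± 3.80 CPM in AXL KO, against 63.6 ± 3.12 and 62.1 ± 2.42 CPM in AXL WT. Its responses differed by −0.52 ± 0.12 (adjusted p = 0.00961), or by −0.47 without AXL WT hypoxia replicates 2 and 3. In normoxia both were higher in AXL KO, Ogdh by 0.67 ± 0.13 (adjusted p = 0.000659) and Suclg1 by 0.65 ± 0.09 (adjusted p = 5.27e-05).

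The remaining members of this stretch are the other subunits of the 2-oxoglutarate dehydrogenase complex, the ATP-forming subunit Sucla2 and the malate dehydrogenases. Dlst, the succinyltransferase, was higher in AXL KO in hypoxia (0.44 ± 0.11, adjusted p = 0.00353) and in normoxia (0.30 ± 0.11, adjusted p = 0.0277), and the first call was lost without AXL WT hypoxia replicates 2 and 3 (0.18, adjusted p = 0.0636). The normoxic call was kept under 16 of 22 alternatives. It was lost with library size alone (0.05, adjusted p = 0.719), without a filter, and when AXL WT normoxia replicate 2 or any AXL KO normoxia library was left out. Dld, the dihydrolipoamide dehydrogenase shared with the pyruvate complex, fell in hypoxia in AXL KO (−0.35 ± 0.12, adjusted p = 0.03), a call kept under 17 of 22 alternatives. It was lost when AXL KO normoxia replicate 1 or 2, or any AXL KO hypoxia library, was left out (adjusted p up to 0.102). Sucla2 was called in none of the 5 comparisons, and its group means ran from 64.9 to 77.9 CPM. Mdh2, the mitochondrial malate dehydrogenase, was lower in AXL KO, with log2 differences of −0.55 ± 0.09 in hypoxia (adjusted p = 0.000187) and −0.55 ± 0.09 in normoxia (adjusted p = 0.000179), with group means of 348 and 345 CPM in AXL WT and 238 and 236 CPM in AXL KO. The hypoxic difference was −0.47 without AXL WT hypoxia replicates 2 and 3 (adjusted p = 0.000333). Mdh1, its cytosolic counterpart, rose slightly in hypoxia in AXL WT, from 188 ± 13.1 to 232 ± 20.9 CPM (0.30 ± 0.10, adjusted p = 0.017), and its responses differed by −0.50 ± 0.14 (adjusted p = 0.0175), or −0.38 without replicates 2 and 3 (adjusted p = 0.0196). The rise was not called with library size alone, without a filter, with quality weights per group, or without AXL WT hypoxia replicates 2 and 3 (0.18, adjusted p = 0.11). In hypoxia Mdh1 was lower in AXL KO (−0.36 ± 0.10, adjusted p = 0.00616), by −0.24 without those replicates (adjusted p = 0.0468).

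None of the 8 genes of pyruvate entry was called higher in hypoxia, and none had responses that differed between the genotypes. In hypoxia 3 of 8 fell in AXL WT and 4 of 8 in AXL KO, and between genotypes 1 was higher and 4 lower in AXL KO in hypoxia and 0 and 4 in normoxia. Of all genes, 30.7% fell and 29.2% rose in AXL WT, 30.6% fell and 27.3% rose in AXL KO, and 28.8% had responses that differed. Between genotypes 29.9% of all genes were higher and 33.0% lower in AXL KO in hypoxia, and 29.7% and 30.0% in normoxia. Whether the 8 genes depart from these shares was not tested. Pdhx, which anchors dihydrolipoamide dehydrogenase in the pyruvate dehydrogenase complex, stood at 33.7, 35.2 and 35.3 CPM in AXL WT normoxia and 17.5, 27.7 and 24.2 CPM in AXL WT hypoxia. The corresponding AXL KO values were 21.2, 21.4 and 20.2 CPM in normoxia and 11.4, 12.8 and 14.9 CPM in hypoxia. It was lower in AXL KO without overlap at each oxygen level (−0.83 ± 0.16 in hypoxia, adjusted p = 0.000766, and −0.73 ± 0.16 in normoxia, adjusted p = 0.00168) and fell in hypoxia in each genotype (−0.59 ± 0.16, adjusted p = 0.0069, and −0.69 ± 0.16, adjusted p = 0.00303). Without AXL WT hypoxia replicates 2 and 3 the genotypes differed in hypoxia by −0.43 (adjusted p = 0.00645), and the fall in AXL WT was −0.97 (adjusted p = 3.73e-06). Dlat, the acetyltransferase of the complex, was also lower in AXL KO, with means of 124 and 114 CPM in AXL WT and 84.2 and 70.9 CPM in AXL KO (hypoxia −0.69 ± 0.09, adjusted p = 2.95e-05, and normoxia −0.55 ± 0.09, adjusted p = 0.000141), and by −0.72 in hypoxia without those replicates (adjusted p = 1.41e-06).

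Pdp1 and Pdp2 encode catalytic subunits of the phosphatases that activate pyruvate dehydrogenase. Pdp1 stood at 23.8, 25.7 and 23.9 CPM in AXL WT normoxia and at 20.01, 6.47 and 10.7 CPM in AXL WT hypoxia. Levels in AXL KO were 6.45, 5.485 and 6.07 CPM in normoxia and 3.66, 4.12 and 4.49 CPM in hypoxia. All AXL WT libraries were above all AXL KO libraries, by a narrow margin for AXL WT hypoxia replicate 2. Pdp1 was lower in AXL KO, with a log2 difference of −2.03 ± 0.31 in normoxia (adjusted p = 0.000134). In hypoxia it was −1.60 ± 0.31 (adjusted p = 0.000849). The latter was −2.29 without AXL WT hypoxia replicates 2 and 3, and −1.06 without replicate 1 (adjusted p = 0.000195). Its fall in hypoxia in AXL WT (−0.98 ± 0.30, adjusted p = 0.014) was −1.51 without replicate 1, −0.66 without replicate 2 and −0.28 without replicates 2 and 3 (adjusted p = 0.0659), and in AXL KO −0.55 ± 0.31 did not pass (adjusted p = 0.145). The AXL KO libraries did not overlap between oxygen levels, and 5 of 22 alternatives called that value: the 6 compared libraries alone, quality weights per group, and AXL WT hypoxia without replicate 1, replicate 2, or replicates 2 and 3 (adjusted p = 0.000171 for the last). Pdp2 passed only between genotypes in hypoxia (−0.39 ± 0.13, adjusted p = 0.0217), and not without AXL WT hypoxia replicates 2 and 3 (−0.18, adjusted p = 0.141). Pdha1, the catalytic subunit of the first component, fell in hypoxia from 286 ± 11.7 to 179 ± 33.8 CPM in AXL WT (−0.68 ± 0.11, adjusted p = 0.000341) and from 333 ± 1.70 to 258 ± 5.56 CPM in AXL KO (−0.37 ± 0.11, adjusted p = 0.0147). In hypoxia it was higher in AXL KO (0.53 ± 0.11, adjusted p = 0.00172). Without AXL WT hypoxia replicates 2 and 3 the fall in AXL WT was −0.39 (adjusted p = 0.000488) and the difference between genotypes 0.24 (adjusted p = 0.016). Pdhb, its partner subunit, passed only in normoxia (−0.36 ± 0.11, adjusted p = 0.0181). Of the subunits of the mitochondrial pyruvate carrier, Mpc2 fell in hypoxia in AXL KO (−0.39 ± 0.11, adjusted p = 0.0117) and Mpc1, with group means of 20.2 to 25.2 CPM, was called in none of the comparisons. Within AXL KO the hypoxic libraries of Mpc1 nevertheless lay above the normoxic ones, at 24.05 to 26.63 against 19.69 to 21.06 CPM.

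Among the glutamine genes, Glul and Slc1a5 were the furthest apart between genotypes in hypoxia. Glul encodes glutamine synthetase, which makes glutamine from glutamate. It stood at 34.98, 41.5 and 39.6 CPM in AXL WT normoxia and at 76.3, 32.1 and 39.1 CPM in AXL WT hypoxia. Far higher levels were found in AXL KO, at 142, 160.3 and 183 CPM in normoxia and at 441.5, 455 and 466 CPM in hypoxia. Every AXL KO library was above every AXL WT library, and in AXL WT the oxygen levels overlapped. The log2 difference between AXL KO and AXL WT was 3.21 ± 0.27 in hypoxia (adjusted p = 1.22e-06), the largest among the 35 genes in that comparison, and 2.06 ± 0.26 in normoxia (adjusted p = 2.6e-05). The hypoxic difference was 2.57 without AXL WT hypoxia replicates 2 and 3. Glul rose in hypoxia in AXL KO (1.49 ± 0.25, adjusted p = 0.000373). In AXL WT 0.35 ± 0.25 did not pass (adjusted p = 0.25), and this value was −0.12 without replicate 1 and 0.99 without replicates 2 and 3. The responses differed by 1.14 ± 0.35 (adjusted p = 0.0299), a call kept under 11 of 21 alternatives. It was 0.50 without replicates 2 and 3, and 1.00 without replicate 3 (adjusted p = 0.0684).

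Slc1a5 encodes the neutral amino acid transporter ASCT2, a main route of glutamine into tumour cells. It stood at 15.6, 13.7 and 17.1 CPM in AXL WT normoxia and at 2.14, 1.55 and 1.39 CPM in AXL WT hypoxia, from 97, 66 and 67 counts. Knockout libraries held 29.4, 24.15 and 19.9 CPM in normoxia and 4.83, 5.845 and 5.17 CPM in hypoxia. The 4 groups did not overlap, and the order was AXL KO normoxia, AXL WT normoxia, AXL KO hypoxia and AXL WT hypoxia. Slc1a5 had the largest fall in hypoxia of the 35 genes in each genotype, with log2 fold changes of −3.19 ± 0.21 in AXL WT (adjusted p = 3.09e-07) and −2.21 ± 0.19 in AXL KO (adjusted p = 3.29e-06). It was higher in AXL KO by 1.64 ± 0.20 in hypoxia (adjusted p = 2.78e-05) and by 0.67 ± 0.18 in normoxia (adjusted p = 0.00812). With AXL WT hypoxia replicates 2 and 3 left out, the fall in AXL WT was −2.84 (adjusted p = 6.85e-08) and the hypoxic difference 1.296 (adjusted p = 0.000347). The difference of responses, 0.98 ± 0.27 (adjusted p = 0.0193), was called under 15 of 21 alternatives and was 0.63 without AXL WT hypoxia replicates 2 and 3 (adjusted p = 0.0955).

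Glud1, glutamate dehydrogenase, feeds 2-oxoglutarate from glutamate. It stood at 146, 148 and 162 CPM in AXL WT normoxia, 95.95, 102 and 92.2 CPM in AXL WT hypoxia. The AXL KO libraries held 189, 189.3 and 187.5 CPM in normoxia and 178, 188 and 193 CPM in hypoxia. The 3 AXL WT hypoxia libraries were the lowest, and in AXL KO the oxygen levels overlapped. With hypoxia Glud1 fell in AXL WT (−0.65 ± 0.08, adjusted p = 3.03e-05) but did not pass in AXL KO (−0.02 ± 0.08, adjusted p = 0.869). The responses differed by 0.63 ± 0.11 (adjusted p = 0.00171), and by the same 0.63 without AXL WT hypoxia replicates 2 and 3 (adjusted p = 0.000136), where the fall in AXL WT was −0.65 (adjusted p = 5.3e-06) and the hypoxic difference between genotypes 0.95 (adjusted p = 7.16e-08). Between genotypes it was higher in AXL KO by 0.95 ± 0.08 in hypoxia (adjusted p = 1.26e-06) and by 0.31 ± 0.08 in normoxia (adjusted p = 0.00466).

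The transaminases Got1 and Gpt2 fell in hypoxia in both genotypes, and for Got1 the fall was larger in AXL KO. Got1 is the cytosolic aspartate aminotransferase, which joins glutamate and oxaloacetate to aspartate and 2-oxoglutarate. It stood at 58.7, 56.25 and 68.0 CPM in AXL WT normoxia and at 38.4, 43.0 and 37.7 CPM in AXL WT hypoxia. The AXL KO values were 98.8, 88.2 and 77.0 CPM in normoxia and 25.6, 26.6 and 28.5 CPM in hypoxia. AXL KO was thus the higher genotype in normoxia and the lower in hypoxia, without overlap in either. Got1 fell by 0.62 ± 0.12 on the log2 scale in AXL WT (adjusted p = 0.00073) and by 1.71 ± 0.12 in AXL KO (adjusted p = 6.83e-07), and the responses differed by −1.09 ± 0.17 (adjusted p = 0.000627). The genotypes differed by 0.53 ± 0.12 in normoxia (adjusted p = 0.00186) and by −0.56 ± 0.12 in hypoxia (adjusted p = 0.00131). With AXL WT hypoxia replicates 2 and 3 left out, the fall in AXL WT was −0.66 (adjusted p = 0.000438), the difference of responses −1.05 (adjusted p = 5.88e-05) and the hypoxic difference −0.52 (adjusted p = 0.00249).

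Gpt2, the mitochondrial alanine aminotransferase, stood at 124, 111 and 143.5 CPM in AXL WT normoxia, 54.2, 52.1 and 70.15 CPM in AXL WT hypoxia. The AXL KO libraries held 208, 163 and 150.6 CPM in normoxia and 52.8, 55.8 and 53.5 CPM in hypoxia. All hypoxic libraries lay below all normoxic ones, and the genotypes overlapped in hypoxia. It fell by 1.10 ± 0.15 on the log2 scale in AXL WT (adjusted p = 7.03e-05) and by 1.68 ± 0.15 in AXL KO (adjusted p = 4.02e-06), a difference of −0.58 ± 0.21 that did not pass (adjusted p = 0.0572) but did without AXL WT hypoxia replicate 1 (−0.63, adjusted p = 0.0222) or replicate 2 (−0.67, adjusted p = 0.0297). In normoxia Gpt2 was higher in AXL KO (0.46 ± 0.15, adjusted p = 0.0182), and in hypoxia −0.12 ± 0.15 did not pass (adjusted p = 0.491). The fall in AXL WT was −1.21 without AXL WT hypoxia replicates 2 and 3 (adjusted p = 5.46e-05). Got2, the mitochondrial aspartate aminotransferase, fell in AXL WT from 306 ± 11.8 to 237 ± 22.6 CPM (−0.37 ± 0.08, adjusted p = 0.00252), or by −0.21 on the log2 scale without replicates 2 and 3 (adjusted p = 0.0322). It was lower in AXL KO in normoxia (212 ± 5.36 CPM, −0.53 ± 0.08, adjusted p = 0.000165) and in hypoxia (186 ± 2.304 CPM, −0.35 ± 0.08, adjusted p = 0.00326), the latter −0.50 without those replicates (adjusted p = 2.33e-05). Of the 6 glutamine genes, 5 were thus higher in AXL KO in normoxia and 1 lower, and 3 were higher and 2 lower in hypoxia. Of all genes 29.7% were higher and 30.0% lower in normoxia, and 29.9% and 33.0% in hypoxia. Whether the 6 genes depart from these shares was not tested. With library size alone the normoxic calls of Slc1a5, Glud1, Got1 and Gpt2 were lost, and that of Glul was kept.

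Slc25a1 carries citrate out of the mitochondrion, and Acly cleaves it to acetyl-CoA in the cytosol. Slc25a1 stood at 52.9, 59.1 and 57.65 CPM in AXL WT normoxia, 101, 50.4 and 90.9 CPM in AXL WT hypoxia. Levels in AXL KO were 151, 170.1 and 177 CPM in normoxia and 116, 134 and 129 CPM in hypoxia. All AXL KO libraries were above all AXL WT libraries, and in AXL WT the oxygen levels overlapped because of hypoxia replicate 2. It was higher in AXL KO by 1.55 ± 0.20 in normoxia (adjusted p = 3.67e-05). In hypoxia the difference was 0.65 ± 0.20 (adjusted p = 0.0132), or 0.40 with AXL WT hypoxia replicate 2 left out (adjusted p = 0.00535) and 0.33 without replicates 2 and 3. Its rise in hypoxia in AXL WT (0.51 ± 0.20, adjusted p = 0.0418) was called under 5 of 22 alternatives, and the difference of responses (−0.90 ± 0.28, adjusted p = 0.0308) under 11 of 21. Leaving out AXL WT hypoxia replicate 1 gave 0.32 for the rise (adjusted p = 0.129), and leaving out replicate 2 gave 0.77 (adjusted p = 5.43e-05). With replicates 2 and 3 left out the rise was 0.84 and the difference of responses −1.23. Acly passed only between genotypes in hypoxia (−0.35 ± 0.11, adjusted p = 0.0172), and not without AXL WT hypoxia replicates 2 and 3 (−0.12, adjusted p = 0.323).

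**Figure D3:**
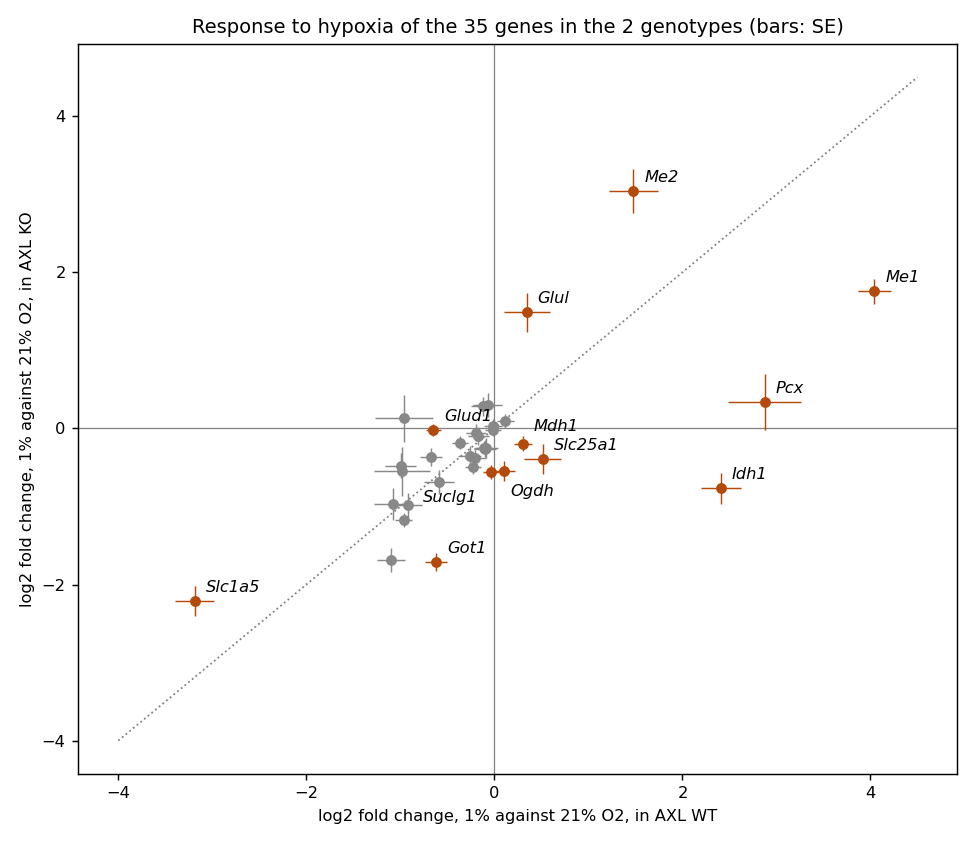
Log2 fold change of each of the 35 genes with hypoxia in AXL WT (horizontal axis) and in AXL KO (vertical axis), with bars of 1 SE and a dotted line of equal responses. The 12 named genes in orange have responses that differ at an adjusted p under 0.05, and Me1, Pcx and Idh1 lie far below the line while Me2 and Glul lie above it.

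Side by side, hypoxia raised Me1 and Me2 in both genotypes and lowered 10 genes in both: Aco1, Idh3a, Idh3g, Suclg2, Fh1, Pdha1, Pdhx, Slc1a5, Got1 and Gpt2. Calls in both genotypes therefore had the same direction for 12 genes and opposite directions for 1, Idh1. Another 9 genes were called in neither: Cs, Idh3b, Dlst, Sucla2, Mdh2, Mpc1, Pdhb, Pdp2 and Acly. Hypoxia raised 29.2% and lowered 30.7% of all genes in AXL WT, and raised 27.3% and lowered 30.6% in AXL KO. How many of all genes were called in both genotypes, or in neither, was not counted. A missing call does not show that a gene was unchanged. In AXL KO, levels of 76% of all genes tested did not overlap between the oxygen levels. Among the 9 genes called in neither genotype they did not overlap for Idh3b, Sucla2 and Mpc1, higher in hypoxia, or for Pdp2 and Acly, lower in hypoxia. These changes in AXL KO stayed uncalled under 15 of 22 alternatives for Idh3b and Acly, 17 for Mpc1 and Pdp2, and all 22 for Sucla2. The responses of the genotypes, which share no library, had the same sign for 27 of 35 genes (77.1%), with a Pearson correlation of 0.64 across the genes. Over all 16767 genes 72.4% had the same sign, with a correlation of 0.571, so the 35 genes stood close to the rest. Genes are not independent replicates, and these values are descriptions.

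Levels can be compared between genes as CPM per kilobase of counted length. In AXL WT normoxia Mdh2 was the most abundant of the 35 at 97.7 ± 4.92 CPM per kb, followed by Pdha1 at 76.5 ± 3.13 and Mdh1 at 73.1 ± 5.10, and the latter pair did not differ beyond their SDs. In AXL WT hypoxia Me1 (265 ± 63.0 CPM per kb), Idh1 (188 ± 65.7) and Pcx (103 ± 59.2) led, with SDs that overlap between neighbours. In AXL KO hypoxia Glul was the most abundant at 137 CPM per kb. Slc1a5 was the lowest in both AXL WT groups, at 3.70 CPM per kb in normoxia and 0.406 in hypoxia, and Pdp1 was the lowest in both AXL KO groups, at 1.33 and 0.908.

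For 7 pairs of related genes the ratio of CPM per kb was formed within each library, after 0.5 CPM was added to each gene. The scaling of a library cancels in such a ratio except through this addition, which weighs most on genes of low level. With 3 libraries a group the smallest two-sided exact permutation p is 0.1, and over the 28 tests (7 ratios in 4 comparisons) the smallest adjusted p was 0.147, so no test could pass. The libraries did not overlap in 19 of the 28. Levels of single genes did not overlap for 61.4% to 79.7% of all genes tested in the same 4 comparisons, so such a count is common here. The ratio of cytosolic Idh1 to mitochondrial Idh2 was 0.776 to 0.819 in AXL WT normoxia. It was 3.12, 16.2 and 13.4 in AXL WT hypoxia, against 0.687 to 0.728 and 0.357 to 0.397 in AXL KO normoxia and hypoxia. Hypoxia thus went with a higher ratio in AXL WT and a lower one in AXL KO, without overlap in either. The mean log2 ratio rose by 3.47 in AXL WT, and by 1.97 in replicate 1 alone. The ratio of Me1 to Me2 was 0.748 to 0.864 in AXL WT normoxia and 6.149, 5.0 and 3.891 in hypoxia, and in AXL KO it was 3.05 to 3.82 in normoxia and 1.33 to 1.53 in hypoxia. It also moved in opposite directions in the genotypes. Got1 to Got2 was 0.342 to 0.418 in AXL WT normoxia and 0.281 to 0.374 in hypoxia, which overlap, and 0.708 to 0.898 and 0.268 to 0.295 in AXL KO.

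**Figure D4:**
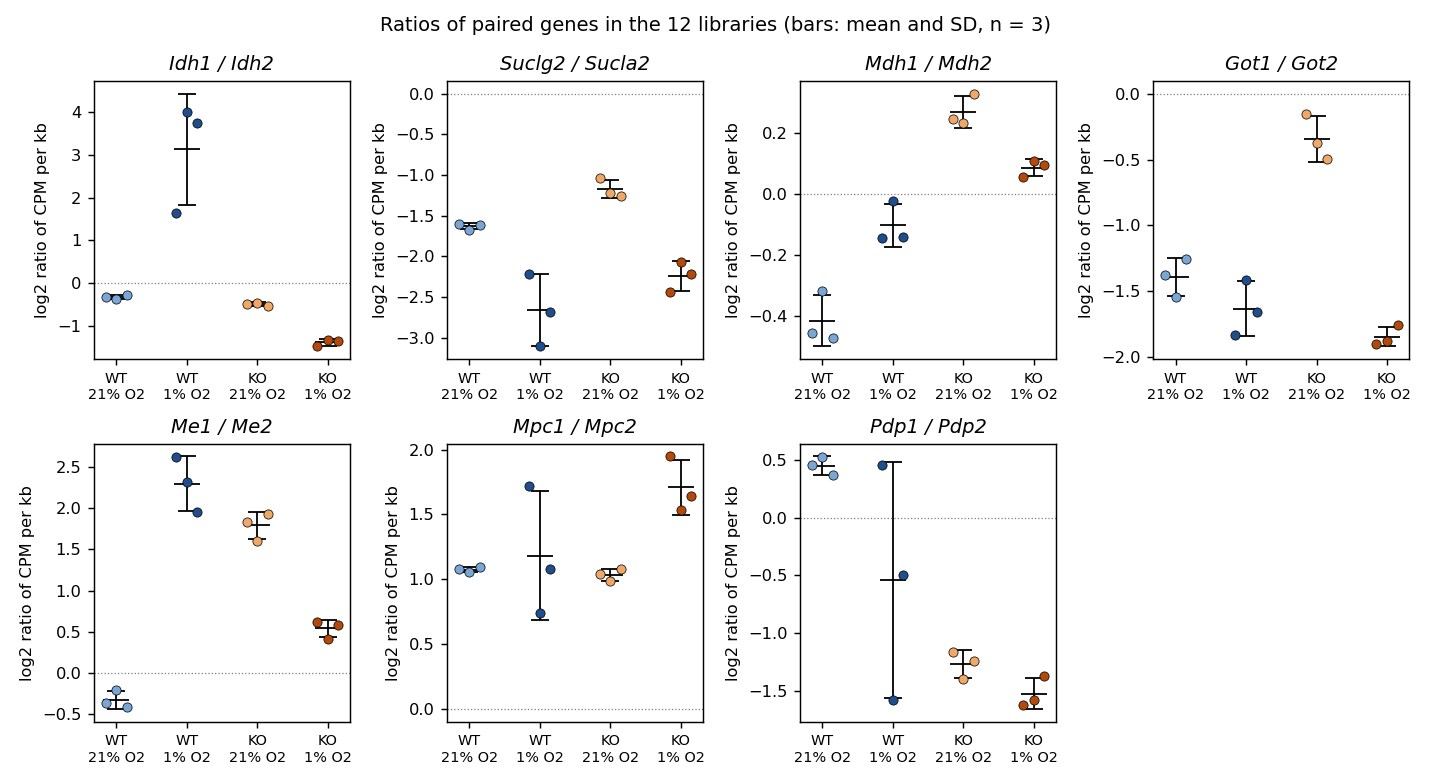
Log2 ratios of CPM per kb, with 0.5 CPM added to each gene, for 7 pairs of related genes in the 12 libraries. Each dot is 1 library, bars are the mean and SD of 3, and a dotted line marks a ratio of 1. Before the log2 was taken, Idh1 to Idh2 spans 3.12 to 16.2 in AXL WT hypoxia and stays below 1 in the other groups.

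The malate dehydrogenases showed smaller shifts of the same measure. Mdh1 to Mdh2 was 0.721 to 0.801 in AXL WT normoxia and 0.904 to 0.985 in hypoxia, and 1.17 to 1.26 and 1.04 to 1.08 in AXL KO. All AXL KO libraries were above all AXL WT libraries. The ratio of the GTP-forming to the ATP-forming succinyl-CoA ligase subunit, Suclg2 to Sucla2, was lower in hypoxia without overlap in each genotype, with fold values of 0.488 in AXL WT and 0.475 in AXL KO, and by a log2 value of −0.58 in AXL WT replicate 1 alone. Pdp1 to Pdp2 was 1.29 to 1.45 in AXL WT normoxia, 1.38, 0.333 and 0.711 in AXL WT hypoxia and at most 0.447 in AXL KO, so that AXL WT hypoxia replicate 1 lay with normoxia and replicate 2 with AXL KO. Mpc1 to Mpc2 was 2.08 to 2.14 in AXL WT normoxia, 3.30, 1.67 and 2.11 in AXL WT hypoxia, 1.98 to 2.11 in AXL KO normoxia and 2.90 to 3.86 in AXL KO hypoxia. The last group did not overlap AXL KO normoxia.

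Of a list of 37 other genes of these pathways 36 were tested, and Pdk4 was too low. Between AXL KO and AXL WT, 14 were higher and 13 lower in hypoxia (75%, beside 63.0% of all genes), and 14 and 8 in normoxia (61.1%, beside 59.7%). Hypoxia raised 6 and lowered 15 in AXL WT (58.3%, beside 59.8%) and raised 8 and lowered 17 in AXL KO (69.4%, beside 58.0%). The responses differed for 12 (33.3%, beside 28.8%), of which 5 were more positive in AXL KO. The smallest p-values between genotypes belonged to Slc38a1, another glutamine transporter, at 0.907 ± 0.0525 and 1.31 ± 0.348 CPM in AXL WT normoxia and hypoxia and 263 ± 20.3 and 338.5 ± 7.965 CPM in AXL KO. Its log2 differences were 8.18 ± 0.18 in normoxia and 8.0038 ± 0.18 in hypoxia (adjusted p = 2.94e-11 and 2.89e-11). Dhtkd1, a relative of Ogdh that acts in lysine breakdown, was at most 0.244 CPM in AXL WT and 6.03 to 9.76 CPM in AXL KO. Ldhb, a lactate dehydrogenase subunit, was higher in AXL KO by 2.99 ± 0.16 in normoxia and 2.57 ± 0.16 in hypoxia (adjusted p = 1.9e-08 and 8.64e-08). Acaca, acetyl-CoA carboxylase, was higher in AXL KO by 1.48 ± 0.10 in normoxia and 1.495 ± 0.10 in hypoxia (adjusted p = 1.2e-07 and 1.51e-07), and its hypoxic changes were −1.59 ± 0.10 in AXL WT and −1.58 ± 0.10 in AXL KO (adjusted p = 2.18e-07 and 2.93e-07).

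With hypoxia, Pycr1, an enzyme of proline synthesis, fell from 24.1 ± 2.17 to 2.08 ± 0.858 CPM in AXL WT and from 68.8 ± 7.67 to 4.17 ± 0.464 CPM in AXL KO (log2 fold changes −3.53 ± 0.25, adjusted p = 5.71e-07, and −4.04 ± 0.25, adjusted p = 3.15e-07). Me3, the third malic enzyme, which is mitochondrial and uses NADP, went the other way from Me1 and Me2: it fell by 2.49 ± 0.18 on the log2 scale in AXL WT (adjusted p = 5.21e-07) and by 2.39 ± 0.16 in AXL KO (adjusted p = 5.74e-07), from 4.83 and 19.7 CPM. Ldha, which reduces pyruvate to lactate, rose by 2.31 ± 0.11 in AXL WT (adjusted p = 5.31e-08) and by 1.35 ± 0.11 in AXL KO (adjusted p = 2.06e-06). Its responses differed by −0.97 ± 0.15 (adjusted p = 0.000912). Differences of responses were also called for Slc25a22, a mitochondrial glutamate carrier (2.02 ± 0.34, adjusted p = 0.00128), and Sdha, the flavoprotein of succinate dehydrogenase (−0.51 ± 0.12, adjusted p = 0.00686).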

How the data were processed

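RNA was measured in 12 libraries, 3 in each of 4 groups named in the titles; the genotype tag contradicts the title for 6 of them and was not used. The tools of the authors, per the submitters' processing notes, were FastQC 0.11.5, STAR 2.5.1b (genome GRCm38), featureCounts 1.4.6 and DESeq2 1.12.3, and the file headers name featureCounts 1.6.0 with Ensembl release 93. The deposited values are raw counts per gene, with strand setting 2, per the file headers.

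Counts were fitted with edgeR 4.0.16 (R 4.3.3): filterByExpr by group, TMM, robust quasi-likelihood, 1 mean per group and 8 residual degrees of freedom over all 12 libraries. The p-values were adjusted by Benjamini-Hochberg over 16767 genes and called under 0.05. The difference of responses is the hypoxia effect in AXL KO minus that in AXL WT. The SE was taken as the size of the log2 fold change divided by the square root of the F statistic. Ratios were tested by exact permutation. The lowest member count was 66, for Slc1a5 in AXL WT hypoxia, and counting error weighs more on such low levels than on the abundant members.

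The 35 genes, the list of other pathway genes and the tests were chosen with earlier results of these data known. Values in every library are given for the 3 genes of largest rise and of largest fall among those called in each comparison, and for the 4 smallest p-values of the difference of responses; other pathway genes are named by up to 4 of the smallest p-values per comparison, and 1 of them is not reported here. Alternatives were RLE factors, scaling by library size alone, filtering at 5 CPM in 3 libraries (strict) or not at all, limma-voom (limma 3.58.1) with and without quality weights per group, DESeq2 1.42.0, the replicate block, the 6 compared libraries alone, and libraries left out.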

Additional observations from a re-analysis of the deposited data

Results flagged for a closer look

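Of the 35 genes, 12 were singled out because their response to hypoxia differed between the genotypes in edgeR's test of the difference itself (adjusted p under 0.05, background 28.8% of all genes). The values are log2 responses in AXL KO minus those in AXL WT. The difference was −3.18 for Idh1, which rose in AXL WT and fell in AXL KO, −2.53 for Pcx and −2.29 for Me1. It was −1.09 for Got1, −0.90 for Slc25a1, −0.64 for Ogdh, −0.52 for Suclg1 and −0.50 for Mdh1. It was 1.56 for Me2, 1.14 for Glul, 0.98 for Slc1a5 and 0.63 for Glud1. Those of Idh1, Pcx, Me1, Me2, Glud1 and Got1 were called under all 21 alternatives, and those of Glul and Slc25a1 under 11 of 21.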

How the results depend on the processing

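Of the called members, 14 of 24 (genotypes in hypoxia), 11 of 22 (genotypes in normoxia), 13 of 20 (hypoxia in AXL WT) and 14 of 19 (hypoxia in AXL KO) were called under each of 22 alternatives, and 6 of 12 differences of responses under each of 21. Leaving out 1 library at a time gave 20 to 29, 19 to 28, 17 to 24, 14 to 26 and 8 to 20 called members in these comparisons. Over all genes the calls ran from 9688 to 12564, 8873 to 11964, 9013 to 11720, 8288 to 11499 and 3582 to 8417. The highest counts for the difference of responses, 20 members and 8417 genes against 12 and 4830, came without AXL WT hypoxia replicate 1.

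A few values turned direction. With library size alone Mdh1 stood at −0.117 between genotypes in normoxia and Idh2 at −0.0785 for hypoxia in AXL KO. Glud1 for hypoxia in AXL KO was 0.0042 with the strict filter and ran from −0.0578 to 0.025 when 1 library was left out, above 0 without AXL KO hypoxia replicate 1. Without AXL WT hypoxia replicates 2 and 3, Me2 between genotypes in hypoxia was 0.548, the difference of responses of Pdp1 was −0.268 and the log2 ratio of Mpc1 to Mpc2 between genotypes in hypoxia was −0.0138. When 1 library was left out, Me2 between genotypes in hypoxia ran from −0.567 (called, without AXL WT hypoxia replicate 1) to 0.0671, and Gpt2 there from −0.207 to 0.0246, both highest without AXL WT hypoxia replicate 3. Glul for hypoxia in AXL WT ran from −0.119 without AXL WT hypoxia replicate 1 to 0.589 without its replicate 2. For the settings that leave no library out, the cause was not tested.

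Replicate numbers did not pair the libraries: the deviations of same-numbered libraries correlated at −0.065 to 0.142. With the replicate block the members divided into 9 higher and 15 lower, 13 and 9, 5 and 13, 3 and 18, and 4 and 7 in the 5 comparisons. Over all 16767 genes the calls were then 5060 higher and 5365 lower, 4916 and 4999, 4704 and 5171, 4540 and 5042, and 2182 and 2339.

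Each group has 3 libraries, and the test gives all groups 1 estimate of spread per gene. With the 6 compared libraries alone the members divided into 5 higher and 11 lower (genotypes in hypoxia), 19 and 12 (in normoxia), 5 and 9 (hypoxia in AXL WT), and 6 and 22 (hypoxia in AXL KO). All genes moved as well. In the same order, 3625 were higher and 4071 lower of 15216 tested, 6187 and 6423 of 15866, 3922 and 3678 of 15453, and 5670 and 6116 of 15134.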
